A study of Mus musculus with 32 samples.

Results

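Metabotropic glutamate receptors are the G protein-coupled receptors for glutamate, the main excitatory transmitter of the cortex. The genes followed here are Grm2, Grm3, Grm4, Grm5, Grm7, and Grm8, 6 of the 49671 genes in the deposited count table and were taken from it as a list of names. Grm6, of the same family, had between 0 and 2 reads in a library and was not tested. The question was whether Grm2 changed alone in its family when neurons were exposed to extracellular oligoribonucleotides.

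Murine cortical neurons were cultured from the forebrains of late embryonic wild-type C57BL/6 mice in Neurobasal medium with B27 supplement, so each library is a bulk culture and not a sorted cell type. The neurons were left untreated or exposed to 1 of 3 synthetic oligoribonucleotides: miR-124-5p, Mut.oligo, a mutated let-7b sequence that served as control, or miR-92a-1-5p. RNA was taken after 6 h or 5 d, with 4 biological replicates in each of the 8 groups, 32 libraries in all. All groups share the genotype and the culture medium.

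The libraries held 24514090 to 73626029 counted reads, and the 6 members had between 105 reads, for Grm8 in the smallest case, and 27808 reads, for Grm5 in the largest. All 8 neuron markers examined (among them Rbfox3, Map2, and Tubb3) were detected in every group, with summed levels of 5152 to 7931 CPM (reads divided by the effective library size and scaled, as a level that can be set side by side between libraries) over all 32 libraries. The libraries came from several experiment batches. At 6 h, 4 miR-92a-1-5p libraries, 2 Mut.oligo libraries, and 2 miR-124-5p libraries shared a batch with an untreated library, and at 5 d 2, 3, and 2. Batches are written here as letters, A to G at 6 h and H to M at 5 d. No batch held libraries of both time points.

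The family falls into 3 groups. Group I, to which Grm5 belongs, couples to Gq and phospholipase C, acts mostly at the postsynaptic membrane, and raises intracellular calcium. Group II, with Grm2 and Grm3, and group III, with Grm4, Grm6, Grm7, and Grm8, couple to Gi/o, inhibit adenylyl cyclase, and often serve as presynaptic brakes on transmitter release. Grm2 is mainly neuronal, Grm3 is found in neurons and astrocytes, and Grm6 is known for its role in bipolar cells of the retina.

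The sequence of miR-92a-1-5p is shown because 7 bases of its 5′ end, the seed, are those through which an intracellular miRNA pairs with a target, and because Grm2 and Grm4 hold the complement. In the RefSeq annotation of GRCm38, the mature miRNA is encoded on chromosome 14 from 115044437 to 115044459 on the + strand. The miRNA is printed 5′ to 3′ with the seed, bases 2 to 8, in capitals, and the sites with the complementary 7 letters in capitals and 8 bases of flank on each side, as read on the mRNA strand.
mmu-miR-92a-1-5p: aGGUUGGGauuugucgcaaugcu
Grm2 3′ UTR: acgacaggCCCAACCcccatgca
Grm4 3′ UTR: tgagttgcCCCAACCctaccact

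The Grm2 site lies on chromosome 9 from 106644707 to 106644713 on the - strand, in 1 of its 3 annotated transcripts with a 3′ UTR, and the Grm4 site on chromosome 17 from 27426296 to 27426302 on the - strand, in 3 of 6. The motif searched was CCCAACC, on the mRNA strand only, and it was in none of the 3′ UTRs of Grm3, Grm5, Grm7, and Grm8. The longest 3′ UTR searched had 227 bases in Grm3 and 581 in Grm8, against 1901 in Grm2 and 1976 in Grm4. In Grm5 and Grm7 it had 4038 and 3356 bases. Over the genome, 2327 of 21193 genes with a 3′ UTR (10.98%) held the motif. A match of 7 letters is a description of the sequence and not evidence of a functional site. The sequences of miR-124-5p and Mut.oligo were not used here.

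In untreated neurons at 6 h, Grm5 was the most abundant member and Grm8 the least. Levels of different genes were compared per length, as CPM per kilobase of exon. Grm5, which encodes the main postsynaptic receptor of group I in the forebrain, stood at 18.8 ± 1.88 CPM per kilobase (SD, n = 4), Grm3 at 10.9 ± 1.02, and Grm2 at 9.55 ± 1.56. Grm7, a presynaptic receptor of group III with low affinity for glutamate, stood at 4.46 ± 0.344, Grm4 at 2.82 ± 0.186, and Grm8 at 0.689 ± 0.0643. Grm3 and Grm2 overlapped in this order, and the other neighbours among the 6 members did not. Of the length-corrected sum of the 6 members, Grm2 made up 16.8% to 25.3% in the 4 untreated libraries.

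At 5 d the order was different. Grm5 stood at 41.5 ± 4.28 CPM per kilobase, Grm3 at 14.98 ± 1.63, Grm7 at 13.2 ± 1.32, Grm4 at 4.39 ± 0.170, Grm2 at 4.15 ± 0.235, and Grm8 at 0.837 ± 0.151. Grm3 and Grm7 overlapped, as did Grm4 and Grm2. Grm2 now made up 4.95% to 5.52% of the sum of the 6 members, whereas Grm5 made up 50.2% to 54.8%.

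**Figure D1:**
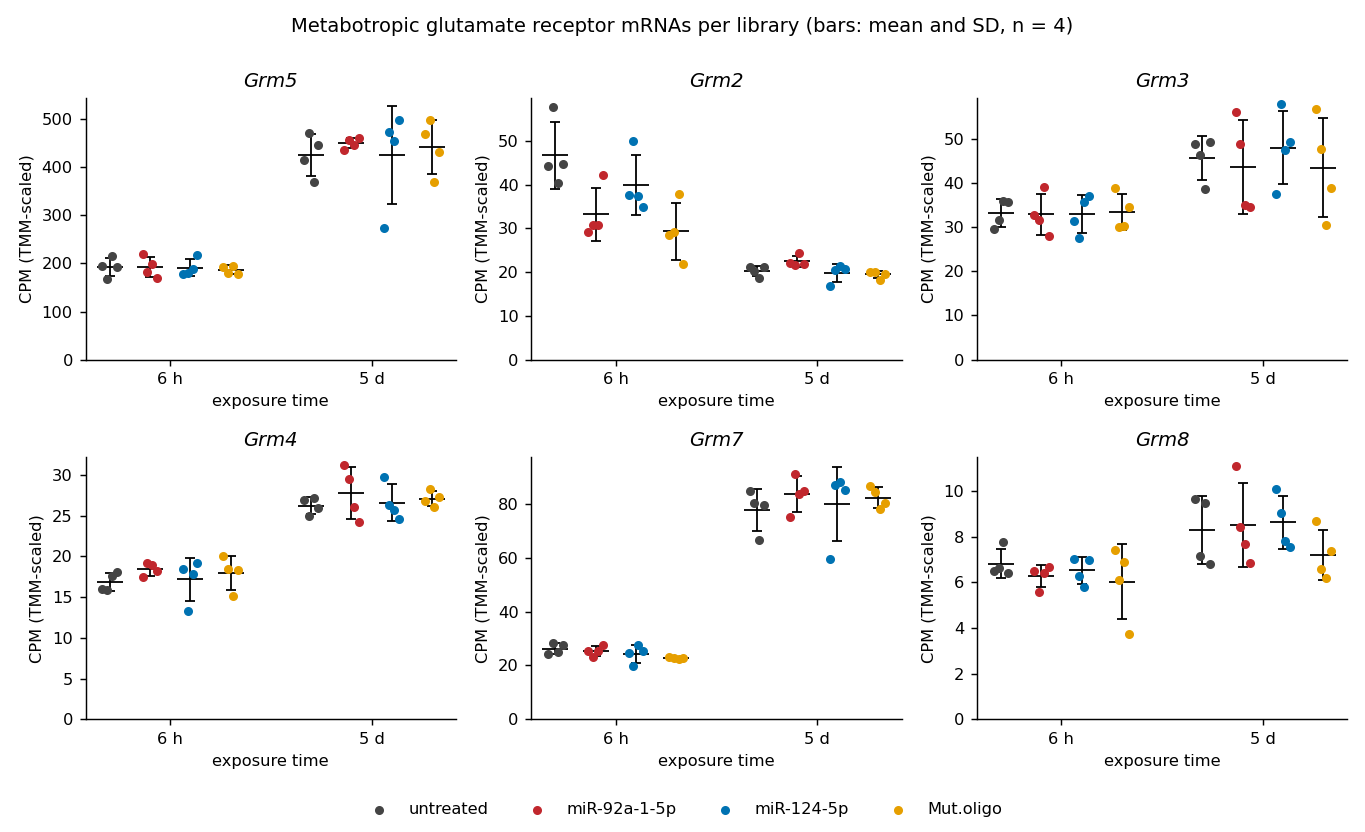
Level of each of the 6 receptor mRNAs in every library, in CPM scaled by the TMM method, by group and exposure time. Points are libraries and black bars the mean and SD of 4. At 6 h, the Grm2 level of all 4 Mut.oligo libraries (21.9 to 37.9 CPM) is below that of all 4 untreated libraries (40.3 to 57.8 CPM), and the other 5 genes do not show such a gap, apart from a small one for Grm7. Of all genes tested, 2.8% lie apart in this direction.

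After 6 h, Grm2 mRNA, which encodes a presynaptic autoreceptor at cortical glutamate synapses, was lower on average after each of the 3 oligoribonucleotides, and this did not pass the test across all genes. The 4 untreated libraries had 44.2, 57.8, 40.3, and 44.7 CPM of Grm2 (replicates 1 to 4). After miR-92a-1-5p the levels were 29.1, 30.8, 30.9, and 42.2 CPM. Neurons given miR-124-5p had 37.6, 50.1, 37.3, and 34.8 CPM, and those given Mut.oligo 28.5, 29.1, 37.9, and 21.9 CPM. All Mut.oligo libraries thus lay below all untreated libraries. With either miRNA 3 of 4 libraries did, and the remaining library overlapped with untreated. Groups that lay apart in the lower direction were found for 2.8% of the 18755 genes tested in the Mut.oligo comparison.

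Compared to untreated, the log2 fold change of Grm2 at 6 h was -0.49 ± 0.16 (SE) with miR-92a-1-5p exposure, -0.22 ± 0.16 when miR-124-5p was given, and -0.65 ± 0.16 with Mut.oligo (edgeR quasi-likelihood test, no covariate, n = 4 per group). The unadjusted p was 0.0069, 0.19, and 0.00089, and the adjusted p over all genes was 1.0, 1.0, and 0.29. To be called, a gene had to differ by more than 0.5 on the log2 scale in either direction, with the adjusted p below 0.05. By this rule 0 of the 6 members were called in each of the 3 comparisons, against a background of 0.0% of genes called in each. At an unadjusted p under 0.05 there were 1 member (Grm2) in the miR-92a-1-5p comparison, 0 in that of miR-124-5p, and 2 (Grm2 and Grm7) in that of Mut.oligo, where 4.75%, 4.54%, and 9.49% of all genes passed the same limit.

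DESeq2, the tool of the study, was also run here and gave nearly the same fold changes for Grm2 and smaller p-values. Its calls differ from those in the paper, which reports Grm2 as lowered by miR-124-5p and no gene as deregulated by Mut.oligo after 6 h. The reason for the difference was not tested. It called Grm2 lower after Mut.oligo, with a log2 fold change of -0.65 ± 0.16 and an adjusted p of 0.036, beside a background of 0.0267% of genes called lower. It did not call Grm2 in the comparisons of miR-92a-1-5p (adjusted p = 0.38) and of exposure to miR-124-5p (adjusted p = 1.0), where 0.0% of genes were called lower. The other 5 members were not called by DESeq2 in these comparisons.

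Within the experiment batches, Grm2 was lower than untreated in 8 of 8 comparisons at 6 h. These comparisons share 4 untreated libraries, of which that of batch D served all 3 oligoribonucleotides, so they are not independent. For miR-92a-1-5p, the 4 differences on the log2 scale were -0.52 in batch A, -0.45 in B, -0.47 in C, and -0.53 in D, so that the highest miR-92a-1-5p library (42.2 CPM) came from the batch of the highest untreated library (57.8 CPM). For Mut.oligo the differences were -0.22 in batch A and -0.65 in D, and for miR-124-5p -0.21 in C and -0.25 in D. The lowest Mut.oligo library, 21.9 CPM in replicate 4, was alone in its batch and has no untreated library to be compared with.

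**Figure D2:**
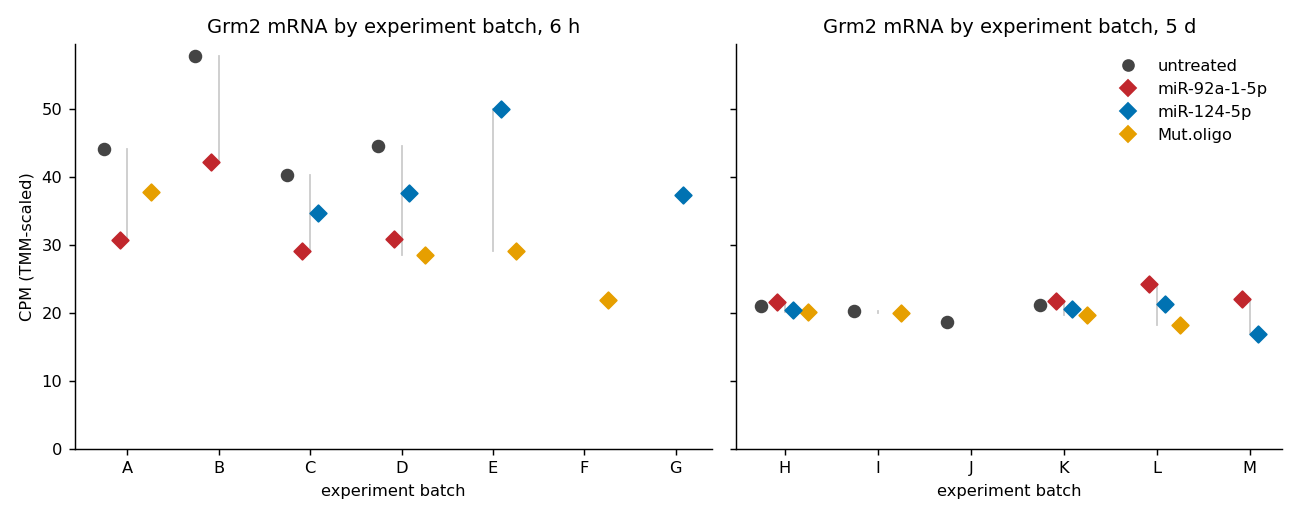
Grm2 level in CPM in each library, arranged by experiment batch (letters), with untreated libraries as circles, exposed libraries as diamonds, and grey lines joining the extremes of a batch. At 6 h, each untreated library is the highest point of its batch (A to D), and at 5 d all libraries lie between 16.9 and 24.3 CPM.

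Entering the batch as a covariate in edgeR reduced the SE of Grm2. The log2 fold change against untreated was then -0.50 ± 0.08 with miR-92a-1-5p (adjusted p = 0.0089), -0.08 ± 0.10 when miR-124-5p was given (adjusted p = 0.95), and -0.52 ± 0.10 with Mut.oligo (adjusted p = 0.10). The miR-92a-1-5p value passed the limit on p and stayed short of the minimum fold change, -0.495 before rounding, so Grm2 was not called. The background of genes called lower in this fit was 0.133% in the miR-92a-1-5p comparison, 0.0213% in that of Mut.oligo, and 0.0% in that of miR-124-5p. DESeq2 with the batch gave Grm2 an adjusted p of 1.3e-05 after miR-92a-1-5p, again short of the minimum fold change at -0.49 ± 0.09, and called it after Mut.oligo (-0.51 ± 0.11, adjusted p = 0.0013), where the backgrounds were 0.096% and 0.0427%. After miR-124-5p it gave -0.08 ± 0.10 (adjusted p = 1.0), beside a background of 0.0%.

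Single libraries decided some of these calls. With the batch covariate and 1 of the 8 libraries left out, the adjusted p of Grm2 for miR-92a-1-5p was no longer under 0.05 in 5 of 8 cases, and it reached 0.075 without untreated replicate 2 (log2 fold change -0.51). The smallest change, -0.43, was that without miR-92a-1-5p replicate 2 (adjusted p = 0.061). Grm2 was called after miR-92a-1-5p when untreated replicate 1 (-0.54), miR-92a-1-5p replicate 1 (-0.53), or miR-92a-1-5p replicate 3 (-0.52) was left out. It was called after Mut.oligo when Mut.oligo replicate 3, the library closest to untreated, was left out (log2 fold change -0.76, adjusted p = 8.6e-05). Without Mut.oligo replicate 1 it was -0.49 with an adjusted p of 0.78, and without replicate 2 -0.39 with an adjusted p of 0.027, short of the minimum fold change. Averaged over the 3 oligoribonucleotides, the log2 fold change of Grm2 against untreated was -0.45 ± 0.13 without a covariate (adjusted p = 0.43) and -0.36 ± 0.07 with the batch (adjusted p = 0.054), and 0 members were called in either fit, with a background of 0.0% without the covariate. DESeq2 called 0 members here too. In edgeR without a covariate, 1 member (Grm2) had an unadjusted p under 0.05, as did 7.79% of all genes.

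The other 5 members did not change detectably after 6 h. Grm5 stayed between 168 and 219 CPM in all 16 libraries of this time point, with group means of 193 ± 19.3 (untreated), 187 ± 9.10 (Mut.oligo), 191 ± 17.7 (miR-124-5p), and 192 ± 21.3 CPM (miR-92a-1-5p). Its log2 fold changes were -0.02 ± 0.08, -0.00 ± 0.08, and -0.00 ± 0.08 in this order of the oligoribonucleotides, and all 4 groups overlapped. Grm3, the other receptor of group II and the closest relative of Grm2, had 29.6, 31.5, 35.8, and 35.6 CPM in untreated, 32.7, 31.5, 39.1, and 28.0 after miR-92a-1-5p, 38.7, 30.1, 30.3, and 34.5 after Mut.oligo, and 31.4, 27.5, 35.7, and 37.1 after miR-124-5p. Its log2 fold changes were -0.01 ± 0.11, 0.04 ± 0.11, and 0.00 ± 0.11 in this order, and within batches it was lower than untreated in 3 of 8 comparisons.

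In group III, Grm4 was on average slightly higher and Grm7 and Grm8 slightly lower than untreated at 6 h, without passing the test. Grm4, which also holds the seed complement of miR-92a-1-5p, had 17.4, 19.2, 18.9, and 18.2 CPM after this miRNA and 15.96, 15.85, 17.57, and 18.03 CPM in untreated, a log2 fold change of 0.13 ± 0.10 (adjusted p = 1.0). Grm7 had 24.1, 28.2, 25.0, and 27.7 CPM in untreated and 23.3, 22.6, 22.2, and 22.6 CPM after Mut.oligo. These groups did not overlap, as was found in the lower direction for 2.8% of all genes tested. The log2 fold change was -0.19 ± 0.08, with an unadjusted p of 0.035 and an adjusted p of 0.49. In the batches shared with untreated, Grm7 differed by -0.12 and -0.25 on the log2 scale, and with the batch covariate its log2 fold change was -0.09 ± 0.06 (adjusted p = 0.75).

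Grm8, the least abundant member, had 6.49, 6.61, 7.77, and 6.42 CPM in untreated and 7.43, 6.12, 6.88, and 3.72 CPM after Mut.oligo at 6 h. The last of these, replicate 4, rests on 105 reads and is also the library with the lowest Grm2. The log2 fold change of Grm8 was -0.16 ± 0.15 without a covariate and 0.11 ± 0.10 with the batch, and neither passed the test (adjusted p = 0.79 and 0.83).

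**Figure D3:**
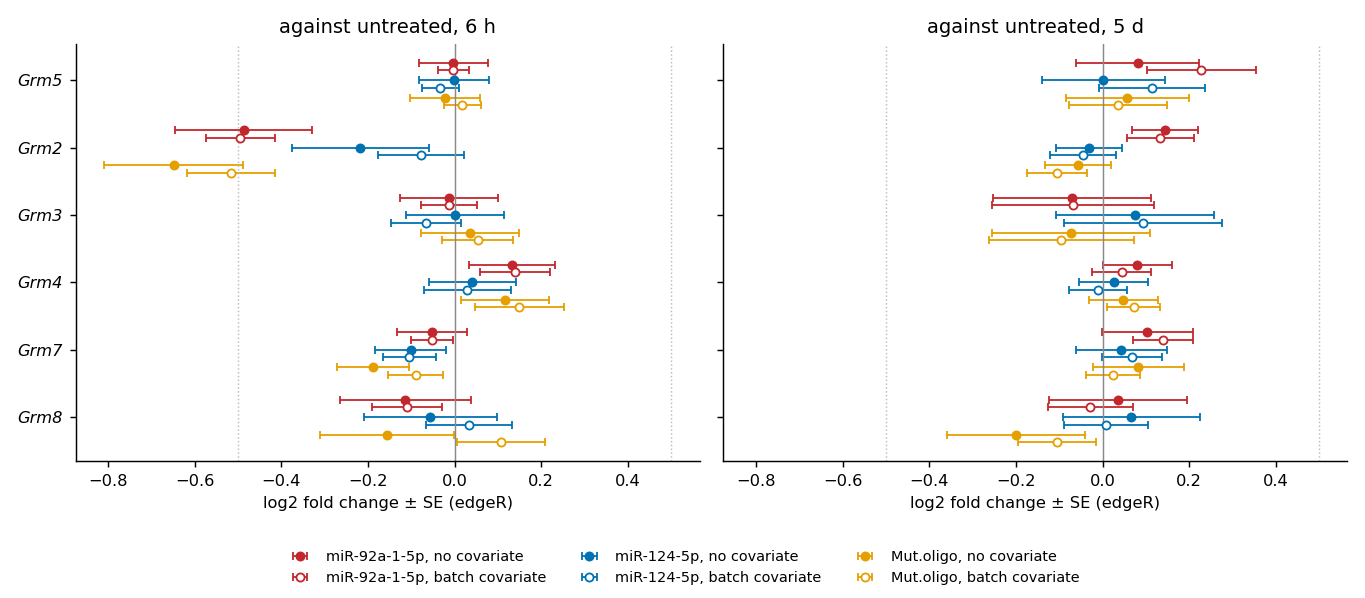
Log2 fold change of the 6 receptor mRNAs against untreated after 6 h (left) and 5 d (right), with SE, from edgeR without a covariate (filled points) and with the batch entered as covariate (open points). Dotted lines mark the minimum fold change of 0.5. At 6 h, the Grm2 values after miR-92a-1-5p and Mut.oligo lie near or beyond -0.5, and all other values lie between -0.22 and 0.15.

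To ask directly whether Grm2 moved apart from its relatives, the log2 ratio of Grm2 to each other member was formed in every library, which removes differences in depth. After 6 h, all 15 mean ratios were lower than in untreated. The difference from untreated was -0.38 to -0.63 after miR-92a-1-5p, -0.47 to -0.77 after Mut.oligo, and -0.11 to -0.25 after miR-124-5p. In the exact two-sided permutation test of 4 against 4 libraries, which cannot give a p below 0.0286, the ratio of Grm2 to Grm7 after miR-92a-1-5p reached that smallest value (-0.44 on the log2 scale). The exact p of the other ratios was 0.057 to 0.14 after miR-92a-1-5p, 0.057 to 0.086 after Mut.oligo, and 0.40 to 0.66 after miR-124-5p. With Benjamini-Hochberg adjustment over the 30 ratio tests of both time points, the smallest adjusted p was 0.286, so 0 of 30 passed.

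Within the shared batches, the ratio of Grm2 to every other member was lower than in the untreated library in 8 of 8 comparisons at 6 h for each of the 5 ratios, and these comparisons share the same 4 untreated libraries. After miR-92a-1-5p the differences within batches were -0.50 to -0.40 for the ratio to Grm7, -0.57 to -0.43 to Grm5, -0.67 to -0.28 to Grm3, -0.79 to -0.46 to Grm4, and -0.53 to -0.22 to Grm8. After Mut.oligo they ranged from -0.85 to -0.11 over the 5 ratios and after miR-124-5p from -0.38 to -0.06. These ratios share the Grm2 values, so the ratios are not independent of each other either. At 5 d, the ratios differed from untreated by 0.04 to 0.24 after miR-92a-1-5p, by -0.14 to 0.14 after Mut.oligo, and by -0.11 to -0.01 after miR-124-5p. The ratio of Grm2 to Grm7 after Mut.oligo (-0.14) was at the smallest exact p the permutation test can give, 0.0286, and it was lower in 3 of 3 shared batches.

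**Figure D4:**
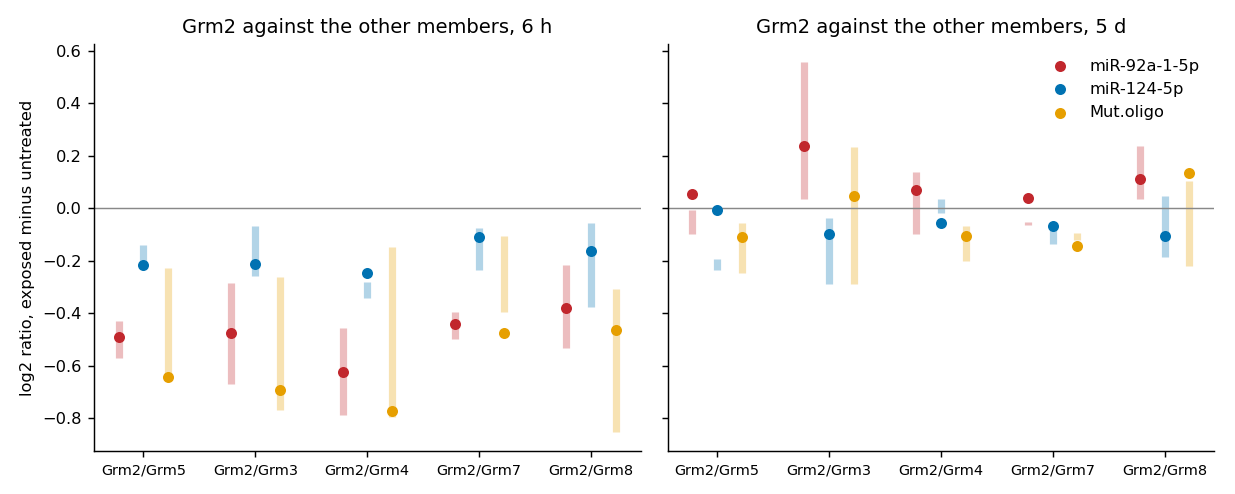
Difference from untreated in the log2 ratio of Grm2 to each other member, by oligoribonucleotide, at 6 h (left) and 5 d (right). Points are differences between group means of 4 libraries, and pale bars span the differences within shared experiment batches (at 6 h 4 for miR-92a-1-5p and 2 for each of the others, at 5 d 3 for Mut.oligo and 2 for each of the others). At 6 h all points and bars lie below 0, and at 5 d they lie on both sides of it.

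Libraries are bulk RNA, so that fewer cells of a type and less RNA per cell cannot be told apart. The 7 excitatory neuron markers summed to 1399 to 1585 CPM in untreated, 1413 to 1649 after miR-92a-1-5p, 1286 to 1707 after Mut.oligo, and 1367 to 1681 after miR-124-5p. The 8 inhibitory neuron markers summed to 984 to 1057, 916 to 986, 804 to 1011, and 869 to 1002 CPM, and the 8 astrocyte markers to 445 to 742, 458 to 694, 376 to 805, and 373 to 703 CPM, in the same order. Within the shared batches, the inhibitory sum was below that of the untreated library in 8 of 8 comparisons, as was that of the endothelial markers, the astrocyte sum was in 7 of 8, and the excitatory sum in 3 of 8. The inhibitory sums were 984 (untreated), 952 (miR-92a-1-5p), and 845 CPM (Mut.oligo) in batch A and 989 and 957 CPM (untreated and miR-92a-1-5p) in batch B. The part of these differences in the Grm2 level was not tested. Of the marker lists, 0 genes were called by edgeR without a covariate in the comparisons to untreated at 6 h. In that fit 0.0% of all genes were called, so this count says nothing about the lists. No marker was at 0 throughout a group. The Mut.oligo library with the lowest Grm2 and Grm8 also had the lowest excitatory (1286 CPM) and inhibitory (804 CPM) and the highest astrocyte (805 CPM) marker sums of its group, and the part of this in its receptor levels was not tested.

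After 5 d, the difference of Grm2 was no longer seen. Untreated libraries had 21.1, 20.3, 18.7, and 21.2 CPM, and miR-92a-1-5p libraries had 22.1, 21.7, 24.3, and 21.8 CPM. Those exposed to miR-124-5p had 16.9, 20.4, 21.4, and 20.6 CPM, and those to Mut.oligo 20.10, 19.998, 18.30, and 19.65 CPM. All 4 miR-92a-1-5p libraries were above all untreated libraries, with a log2 fold change of 0.14 ± 0.08 (adjusted p = 1.0), and groups apart in the higher direction were found for 1.23% of the 19333 genes tested. Within the 2 shared batches the difference was 0.04 in both. In the same libraries, markers of dividing cells summed to 29.0 to 67.7 CPM against 75.9 to 84.7 CPM in untreated. Those of the oligodendrocyte lineage summed to 88.2 to 165 CPM against 169 to 203 CPM. Lower sums were not particular to miR-92a-1-5p. Dividing-cell markers summed to 38.3 to 61.5 CPM after Mut.oligo and 42.9 to 64.0 CPM after miR-124-5p. The lineage markers summed to 125 to 142 and 115 to 182 CPM, the last range overlapping with untreated. The part of these markers in the Grm2 level was not tested. Grm2 differed by -0.03 ± 0.08 after miR-124-5p and by -0.06 ± 0.08 after Mut.oligo (adjusted p = 1.0 for both).

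At 5 d, 0 of the 6 members were called after any oligoribonucleotide, by edgeR with or without the batch or by DESeq2 with or without it, and 0 members had an unadjusted p under 0.05 without a covariate, where 3.63% (miR-92a-1-5p), 2.79% (Mut.oligo), and 2.6% (miR-124-5p) of all genes did. The background of genes called by edgeR was 0.00517%, 0.0%, and 0.0%. Averaged over the 3 oligoribonucleotides, Grm2 differed by 0.02 ± 0.06 and again 0 members were called, beside 0.0155% of all genes. The log2 fold changes of the other 5 members without a covariate ranged from -0.20 ± 0.16 (Grm8 after Mut.oligo) to 0.10 ± 0.11 (Grm7 after miR-92a-1-5p).

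Some groups were spread widely at 5 d. Grm3 had coefficients of variation of 10.9% in untreated, 24.6% after miR-92a-1-5p, 25.96% after Mut.oligo, and 17.3% after miR-124-5p. Replicate 1 of miR-124-5p stood apart with 274 CPM of Grm5 and 59.6 CPM of Grm7, where the other 3 libraries of its group had 455 to 498 CPM of Grm5 and 85.1 to 88.2 CPM of Grm7. Its summed neuron markers (5257 CPM) were the lowest of its group as well, and the part of this in its receptor levels was not tested. The miR-92a-1-5p library of the same batch had 437 CPM of Grm5 and 75.1 CPM of Grm7.

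The change of Grm2 at 5 d against that at 6 h, averaged over the 3 oligoribonucleotides, was compared in a single fit of all 32 libraries. The difference of changes was 0.48 ± 0.15 on the log2 scale (unadjusted p = 0.0034, adjusted p = 1.0), and 0.36 ± 0.11 with the batch as covariate (adjusted p = 0.38). The 6 h and 5 d changes of Grm2 were therefore not shown to differ across all genes, where 0.0% of 20425 were called in either direction and 4.47% had an unadjusted p under 0.05. For the other members the difference of changes lay between -0.04 ± 0.11 (Grm4) and 0.20 ± 0.11 (Grm7). DESeq2 called 0 members in this comparison.

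Between the oligoribonucleotides, 3 pairs were compared at each time point, at 6 h and at 5 d, and 0 members were called in each of them by edgeR or DESeq2, with a background of 0.0% of genes called by edgeR in each. At an unadjusted p under 0.05 there was 1 member, Grm2, in 3 of the 6 comparisons, namely miR-124-5p against Mut.oligo at 6 h and miR-92a-1-5p against each of the others at 5 d. Of all genes, 3.58% passed the same limit in the first of these. At 5 d, 1.98% passed it against Mut.oligo and 2.29% against miR-124-5p. The largest difference was that of Grm2 between miR-124-5p and Mut.oligo at 6 h, 0.43 ± 0.16 higher after miR-124-5p on the log2 scale (unadjusted p = 0.016, adjusted p = 1.0), with within-batch differences of 0.40 in D and 0.78 in E. With the batch covariate it was 0.44 ± 0.10 (adjusted p = 1.0), and it was called when Mut.oligo replicate 3 was left out of that fit (0.60, adjusted p = 0.0016), whereas without Mut.oligo replicate 2 or miR-124-5p replicate 2 it was 0.20 (adjusted p = 0.93 for both). For miR-92a-1-5p against miR-124-5p the log2 fold change of Grm2 was -0.27 ± 0.16, and -0.42 ± 0.10 with the batch (adjusted p = 1.0 and 0.95). Between miR-92a-1-5p and Mut.oligo it differed by 0.16 ± 0.16, and by 0.02 ± 0.10 with the batch (adjusted p = 1.0 for both). At 5 d, Grm2 after miR-92a-1-5p was higher than after miR-124-5p in 4 of 4 shared batches and higher than after Mut.oligo in 3 of 3, by 0.08 to 0.39 and 0.11 to 0.41 on the log2 scale, without passing the test.

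Between the time points, Grm2 was called lower and Grm4, Grm5, and Grm7 higher in untreated neurons. In untreated neurons at 5 d compared to 6 h, Grm2 fell from 46.8 ± 7.66 to 20.3 ± 1.15 CPM (SD, n = 4), a log2 fold change of -1.20 ± 0.13 (adjusted p = 6.7e-09). Grm5 rose from 193 ± 19.3 to 425 ± 43.9 CPM (1.14 ± 0.12, adjusted p = 5.4e-09). Grm7 rose from 26.3 ± 2.02 to 77.8 ± 7.75 CPM (1.57 ± 0.10, adjusted p = 9.6e-14), and Grm4 from 16.9 ± 1.11 to 26.3 ± 1.02 CPM (0.64 ± 0.09, adjusted p = 1.0e-06).

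Grm3 had an adjusted p of 0.016 and stayed under the minimum fold change at 0.46 ± 0.16, and Grm8, with 6.82 ± 0.637 CPM at 6 h and 8.29 ± 1.497 CPM at 5 d, did not pass (0.28 ± 0.16, adjusted p = 0.15). Thus 1 of the 6 members was called lower, where 14.3% of all genes were, and 3 were called higher, where 19.1% were, so that a call by itself sets the members little apart from the transcriptome. Levels at 5 d and 6 h lay apart for Grm2 in the lower direction, as they did for 24.3% of all genes, and for Grm3, Grm4, Grm5, and Grm7 in the higher direction, as for 23.6%. Without untreated 6 h replicate 3 or 4, or without untreated 5 d replicate 3, Grm3 was called as well (0.54 for each). The 2 time points share no batch, so time in culture and experiment batch cannot be told apart.

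The same contrast was then taken in each exposed group. Grm2 was called lower at 5 d in all of them, with log2 fold changes of -0.57 ± 0.13 after miR-92a-1-5p, -0.59 ± 0.13 after Mut.oligo, and -1.01 ± 0.13 after miR-124-5p (adjusted p = 0.00048, 0.00037, and 1.6e-07). The call was lost after miR-92a-1-5p without its 6 h replicate 4 (-0.43) and after Mut.oligo without its 6 h replicate 3 (-0.43), the library with the highest Grm2 in each group. Grm4, Grm5, and Grm7 were called higher in all 3 groups, with log2 fold changes of 0.59 to 0.63, 1.15 to 1.24, and 1.72 to 1.86. Grm3 was called higher after miR-124-5p (0.54 ± 0.16, adjusted p = 0.0054), a call that was lost without its replicate 2 of either time point (0.49 and 0.46). With all libraries it was not called after miR-92a-1-5p (0.41 ± 0.16) or Mut.oligo (0.38 ± 0.16), where it was called without miR-92a-1-5p 6 h replicate 3 (0.55), 5 d replicate 3 (0.53), or 5 d replicate 4 (0.54), and without Mut.oligo 5 d replicate 3 (0.52). Grm8 was called in none of the groups with all libraries, and after miR-92a-1-5p it was called without 5 d replicate 3 (0.51) or 4 (0.56). The backgrounds were 18.3%, 18.7%, and 19.5% of genes called higher and 15.7%, 15.4%, and 14.7% called lower, in the order miR-92a-1-5p, Mut.oligo, and miR-124-5p.

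**Figure D5:**
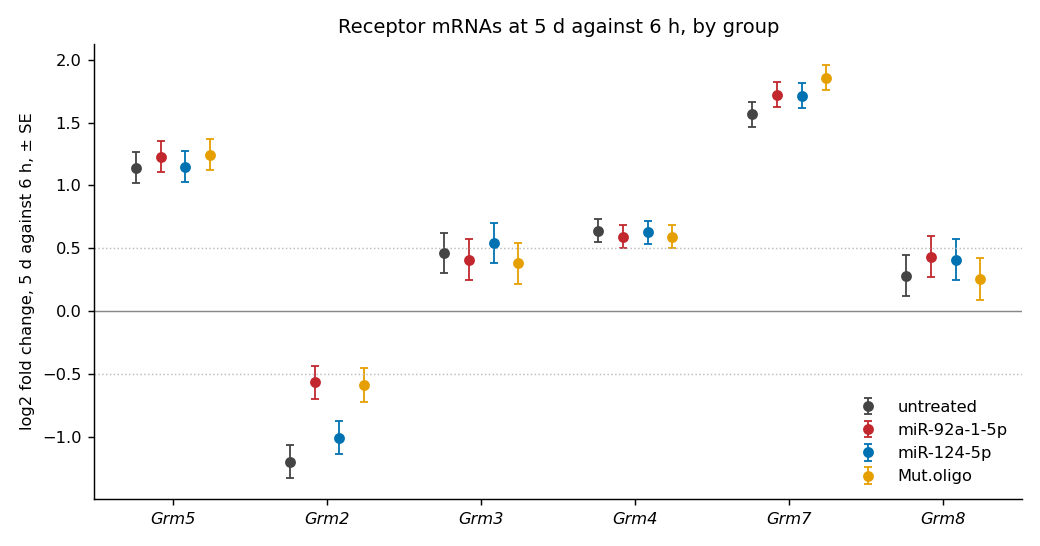
Log2 fold change of the 6 receptor mRNAs at 5 d against 6 h in each group, with SE (edgeR, n = 4 libraries per group and time point). Dotted lines mark 0.5 and -0.5. Grm2 lies below 0 in all groups, from -1.20 in untreated to -0.57 after miR-92a-1-5p, and the other 5 receptors lie above 0.

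The cultures differed in their cell type markers between the time points. In untreated neurons, all 8 astrocyte markers were called higher at 5 d (median log2 fold change 2.31) and their sum rose from 445 to 742 CPM at 6 h to 1862 to 3110 CPM at 5 d. All 5 markers of dividing cells were called lower (median -1.44), as were 5 of 7 excitatory neuron markers (1 was called higher, median -0.86) and 4 of 8 inhibitory neuron markers (median -0.21). Of the general neuron markers, 1 was called higher and 2 lower of 8 (median 0.16). Of microglia markers 2 of 7 were called higher, of endothelial markers 1 of 5 higher, and of oligodendrocyte lineage markers 2 of 7 lower. Of all genes, 19.1% were called higher and 14.3% lower. Counts of 1 or 2 genes in a list are thus no result about that list. Among all genes the median log2 fold change was 0.04. The part of these differences in the receptor levels was not tested.

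Genes that act with the receptors were read from 4 lists. In the comparisons to untreated, 0 of 13 genes of the Gq arm, 0 of 15 of the Gi/o arm, 0 of 21 scaffolds and regulators, and 0 of 9 genes of glutamate transport were called at 6 h or 5 d by edgeR without a covariate, the fit in which 0 or 1 gene of the whole transcriptome was called. At 6 h, the median log2 fold change of the Gi/o arm was -0.04 after miR-92a-1-5p and -0.05 after Mut.oligo, and that of the Gq arm 0.04 and 0.08, where the median of all genes was 0.01 and -0.00. With the batch covariate or DESeq2 with the batch, 1 scaffold or regulator was called lower after miR-92a-1-5p at 6 h, Rgs4, a GTPase-activating protein that shortens Gq and Gi/o signals (-0.52 ± 0.08, adjusted p = 0.0064 with edgeR). The background of genes called lower was 0.133% and 0.096% in these fits. Without a covariate Rgs4 had the same log2 fold change with a larger error (-0.52 ± 0.22, adjusted p = 1.0). Whether the drop was particular to this miRNA was not tested. In edgeR with the batch, Rgs4 was also lower after Mut.oligo (-0.42 ± 0.10, adjusted p = 0.16), without being called. After miR-124-5p it was -0.14 ± 0.10 (adjusted p = 0.89).

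Between the time points, genes of all 4 lists were called. In untreated neurons 8 of 9 genes of glutamate transport were called higher at 5 d and 0 lower, with a median log2 fold change of 1.77, where 19.1% of all genes were called higher and 14.3% lower. They included Slc1a2, the main astrocytic glutamate transporter (2.17 ± 0.16), Slc7a11, the cystine/glutamate exchanger (3.35 ± 0.32), Slc17a7, the vesicular transporter of mature cortical excitatory neurons (1.78 ± 0.17), Slc1a1 (0.81 ± 0.08), and Glul, glutamine synthetase (1.02 ± 0.10). Slc1a2 and Slc1a3 were also among the astrocyte markers, and Slc17a6 and Slc17a7 among the excitatory neuron markers.

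Of the Gi/o arm, 7 of 15 genes were called higher and 0 lower (median 0.45), beside the same 19.1% and 14.3% of all genes. Those with the smallest p were the adenylyl cyclases Adcy8 (1.03 ± 0.11), Adcy3 (0.81 ± 0.09), and Adcy2 (0.73 ± 0.09), the GIRK channel subunit Kcnj9 (0.86 ± 0.11), and Gnai1 (0.50 ± 0.08). Of the Gq arm, 5 of 13 were called higher and 2 lower (median 0.11), the latter about the share of 14.3% among all genes (19.1% were called higher). The kinase Prkcb (1.37 ± 0.12), the channel Trpc5 (0.97 ± 0.22), and the IP3 receptor Itpr2 (1.14 ± 0.28) were among those that rose. Of the scaffolds and regulators, 4 of 21 were called higher and 2 lower (median 0.04), which is at or below the shares of all genes (19.1% and 14.3%), so these counts are no result about the list. Rgs14 (3.93 ± 0.19), Camk2a (1.64 ± 0.12), the receptor kinase Grk3 (0.95 ± 0.11), and Ncdn (0.65 ± 0.08) rose, and Rgs2 fell (-0.85 ± 0.13). The largest adjusted p among these genes was 0.0011, that of Itpr2.

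The genes whose levels followed each member most closely were found by Pearson correlation over the 32 libraries, on log2 CPM centred within each time point, among 17906 genes. These values are descriptions, since libraries of a batch and of a group share their deviations. Grm2 was followed most closely by Plppr4 (r = 0.90), Slc7a8 (0.88), and Brinp1 (0.88), and Grm5 by Tbc1d24, Reps2, and Pgm2l1 (0.92 to 0.93). Grm3 was closest to Trpc5, Pik3r1, and Lpp (0.84), Grm7 to Slc41a2, Nsf, and Mfsd6 (0.82 to 0.83), and Grm8 to Nexn, Ecel1, and Tac1 (0.76 to 0.80). Grm4 was closest to Adora2a (0.79) and Drd2 (0.77), which encode an adenosine and a dopamine receptor of striatal projection neurons, and to Spon1 (0.74). Among the members themselves, the correlation with Grm2 was -0.52 for Grm4, -0.12 for Grm3, 0.10 for Grm5, 0.32 for Grm8, and 0.35 for Grm7, and the highest of all pairs was that of Grm5 and Grm7 (0.57).

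All members are protein-coding genes of GRCm38. Grm2 (ENSMUSG00000023192) lies on chromosome 9 from 106643095 to 106656082, Grm3 (ENSMUSG00000003974) on chromosome 5 from 9485541 to 9725170, Grm4 (ENSMUSG00000063239) on chromosome 17 from 27422387 to 27521403, and Grm8 (ENSMUSG00000024211) on chromosome 6 from 27275119 to 28135178, all on the - strand. Grm5 (ENSMUSG00000049583) lies on chromosome 7 from 87584168 to 88134907 and Grm7 (ENSMUSG00000056755) on chromosome 6 from 110645581 to 111567230, both on the + strand. Exons of Grm2 and Grm7 overlap antisense genes (Gm28111 and Gm20387), whose reads strand-specific counting keeps apart, and Grm8 overlaps the miRNA gene Mir592 on its own strand.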

How the data were processed

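RNA was sequenced from cultured neurons as stranded libraries. The authors mapped the reads to GRCm38 with STAR and counted them on exons with featureCounts of the Subread package, and the deposited table holds raw counts per gene for 32 libraries, with 0 columns left unassigned. Groups and experiment batches come from the deposited labels. The members and lists were chosen with earlier results of these data known. All 6 members are named in each comparison, of the lists up to 5 called genes with the smallest p, and per member the 3 most correlated genes. Some genes that this rule or the lists hold are not reported here.

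After a filter that kept genes reaching 5 counts in 3 or more libraries, counts were fitted over all groups of a time point with edgeR 4.0.16 in R 4.3.3 (TMM, quasi-likelihood test, no covariate), and p-values were adjusted over all genes by the Benjamini-Hochberg method. CPM were scaled by TMM over the 32 libraries. Ratios and within-batch differences used log2 CPM with a prior count of 2, and scipy 1.17.1 for the exact permutation test. The fits were tested on simulated data. Alternatives were the batch as a covariate, the replicate number, DESeq2 1.42.0, RLE size factors, other filters and thresholds, and leaving out libraries. Those that combine the batch with a left-out library, and the time contrasts of exposed groups, were added after seeing the data. Reads per library ranged from 24514090 to 73626029, and replicates of a group differed by more than sampling noise (chi-square per degree of freedom 7.10 to 110). Replicate numbers followed the batch only in part, more so at 5 d, where replicate 4 of every group was from batch K. They were not taken as pairs.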

Additional observations from a re-analysis of the deposited data

Results flagged for a closer look

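Dixon's test at the 95% level was run on the CPM of the 6 members in the 8 groups of 4 libraries. It marked 4 of 48 groups, where chance gives about 2.4. For Grm2, the highest library after miR-92a-1-5p at 6 h (replicate 4, 42.2 CPM) stood apart from the other 3 at 29.1 to 30.9 CPM, and it shares its batch with the highest untreated library. Replicate 3 of miR-92a-1-5p at 5 d (24.3 CPM of Grm2) stood apart from 21.7 to 22.1 CPM. For Grm7, replicate 1 of miR-124-5p at 5 d (59.6 CPM) stood below the other 3 at 85.1 to 88.2 CPM. For Grm8, untreated replicate 3 at 6 h (7.77 CPM) stood above the other 3 at 6.42 to 6.61 CPM. The change of the members after exposure did not differ between 5 d and 6 h at an adjusted p under 0.05 (edgeR).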

How the results depend on the processing

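Counts of called members were within 1.5 times the main value in 154 alternatives that kept all libraries and not in 2. These were DESeq2 and DESeq2 with the batch, which called 1 member, Grm2, after Mut.oligo at 6 h. In comparisons within a time point the main count was 0, and edgeR without a covariate called at most 3 of all genes. Agreement of counts there was nearly fixed in advance and says little about the members. When single libraries were left out, the count went from 0 to 1 in 5 fits, all with the batch as a covariate: the range was 0 to 1 for miR-92a-1-5p and for Mut.oligo against untreated and for miR-124-5p against Mut.oligo, each at 6 h. The cause was not tested. With the replicate block, Grm2 had log2 fold changes at 6 h of -0.48 (miR-92a-1-5p), -0.64 (Mut.oligo), and -0.22 (miR-124-5p), and 0 members were called in comparisons to untreated. Correlations of same-numbered libraries had a median of -0.05 at 6 h and 0.12 at 5 d, so the numbers were not taken as pairs, and the replicate block changed no call. Uncalled values larger than their SE in both fits changed sign in 3 cases. Grm8 after Mut.oligo at 6 h was 0.11 with the batch, and there 0.13 and 0.16 without untreated replicate 1 or 3 and 0.15 and 0.11 without Mut.oligo replicate 2 or 4. Grm2 between miR-92a-1-5p and Mut.oligo at 6 h was -0.10 with the batch and without Mut.oligo replicate 2, and Grm7 between miR-124-5p and Mut.oligo at 6 h was -0.074 with the batch and without Mut.oligo replicate 1. In untreated neurons at 5 d against 6 h, 4 members were called in all alternatives that kept the fold limit and all libraries. Of the 30 ratios of Grm2, 0 passed adjustment, also with a prior count of 0.5 or without any single library, where 3 against 4 libraries cannot reach an exact p under 0.05. Depth limited Grm8, at 105 to 580 reads, more than the other members.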
